A study of Drosophila melanogaster with 6 samples.

Results

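Among the genes of *Drosophila melanogaster* that are known by an annotation number alone, 138 of 5209 read at least 3 log2 units higher in insv mutant embryos than in wild type, a share of 2.65%. They were chosen by their measured values: the gene had a current symbol made of CG and digits, the mean of the 3 mutant arrays exceeded the mean of the 3 wild-type arrays by at least 3 (8-fold), and the lowest mutant value lay above the highest wild-type value. Because the choice used this contrast, the levels and differences of these genes are a description, and no test is given for them. The genes were split by their wild-type mean into 35 under 3 and 103 at 3 or above. All uniquely named genes on the array numbered 11982.

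Expression was measured in total RNA of embryos aged 6 to 8 h, kept at 25 °C, on Affymetrix Drosophila Genome 2.0 arrays with a biotin label. The mutant embryos carried the allele insv[23B], described in the labels as an Insensitive mutant, and the wild-type embryos were w[1118]. There were 3 arrays per genotype, called replicates in the labels without a statement that they came from separate collections, so the spread between them may be technical. The labels used here do not say whether the mutant embryos were homozygous or how they were selected.

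Insensitive is a nuclear protein with a BEN domain, a DNA-binding fold, and it represses transcription in neural precursors, where one of its partners is Suppressor of Hairless, through which Notch signalling reaches its target genes. A CG number is the identifier that a gene receives from the genome annotation, and it serves as the symbol until someone names the gene. Such genes include those of secreted enzymes and of cuticle and gut lining proteins, and they are often known from their sequence more than from mutants.

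The mutated gene read 10.9 on each wild-type array and 4.0, 3.6 and 4.2 on the mutant arrays, a fall that limma put at -6.97 ± 0.16 on the log2 scale (SE; adjusted p = 3.26e-06), so its level matched the genotype labels. Between 45.9% and 46.1% of probe sets lay at the floor of 2.2 on an array, and the array median was 2.4 in wild type and 2.5 or 2.6 in the mutant. The Bacillus RNAs added as controls ran the other way from the CG genes described here. Of 27 control probe sets 24 lay above 4, and all 24 read lower in the mutant without overlap, by a median of -1.43 (range -1.77 to -0.90), and whether the amount of sample RNA differed between genotypes was not tested. Differences below are on the deposited scale. A scale set by these controls would add 1.57 to each, which enlarges increases and shrinks or turns decreases.

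Most measured marker genes of muscle, epidermis and gut were higher in the mutant as well. The marker lists were chosen with earlier results of these data known, so their shares are a description. A uniquely named probe set was found for 11 of 16 listed muscle genes, 22 of 22 epidermal ones and 15 of 18 gut ones. The limma test called 11 of 11 tested muscle genes higher, 19 of 19 of epidermis and cuticle and 11 of 11 digestive enzyme genes of the gut, with median log2 fold changes of 3.20, 2.23 and 3.07, where 24.9% of all 6932 genes tested were called higher, 41.7% were called lower and the median was -0.13. The excess of lower calls depends on the scaling. Over the 8334 probe sets tested, rather than genes, the calls were 24.7% higher and 40.8% lower. With each array centred on its median over these probe sets, they were 31.0% higher and 29.2% lower. A gene low in wild type was tested only when the mutant was high, so genes near the floor in both genotypes dropped out. Over measured genes the median difference was 3.20 for the 11 of muscle, 1.90 for the 22 of epidermis and cuticle and 2.27 for the 15 of the gut, of which 2 stayed under 3 on all arrays. The summed log2 level of the measured muscle markers was 12.1 to 12.3 in wild type and 14.0 to 14.1 in the mutant, that of the epidermal markers 10.7 to 10.8 and 13.7, and that of the gut markers 8.5 to 8.6 and 11.7 to 11.8. Of 12 tested genes of blood cells and basement membrane 9 were called higher and 2 lower, with a median of 0.52. Over the 14 measured the median difference was 0.40, and Hml and NimC1 stayed under 3 on all arrays. The largest increases were those of Glt (4.30), vkg (3.80), Col4a1 (3.57) and SPARC (2.53). The 2 lower genes were crq (-0.37) and gcm (-0.23), and srp was not called. Of 6 measured fat body genes 3 were tested and called higher, the other 3 stayed under 3 on all arrays, and the median difference over the 6 was 0.18. Among 20 tested patterning and neural precursor genes of the labelled age 2 were higher and 11 lower (median -0.28). The summed log2 level of those measured was 14.7 in wild type and 14.6 to 14.7 in the mutant. The brightest genes, such as grh (11.9 in wild type and 12.3 in the mutant), carry most of this sum, so it does not date the embryos. Of the 10 tested blastoderm and maternal genes 2 were called higher and 6 lower, with a median of -0.42. The markers of adult females (12 of 12 measured) and adult males (12 of 12) stayed under 3 on all arrays, as did 4 of 5 of the adult head. In whole-embryo RNA, more cells of a type and more RNA per cell cannot be told apart, and the part of tissue makeup or embryo age in the differences below was not tested.

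The CG genes chosen were low in wild type and spread over a wide range in the mutant. Their wild-type means ran from 2.2 to 7.7 with a median of 3.62, and their mutant means from 5.53 to 11.43 with a median of 7.27. The differences ran from 3.00 to 6.17 with a median of 3.72. In 51 genes the difference was at least 4, in 5 at least 5 and in 2 at least 6, while 50 genes lay between 3 and 3.5. Of the 5209 CG genes, 2935 had a wild-type mean under 3 and 1.19% of these met the rule, against 4.53% of the 2274 with a higher wild-type mean. The shares are not on equal terms, because the floor shortens differences of genes that read near 2.2 in wild type. The median difference was 3.63 in the lower class and 3.73 in the higher class.

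**Figure D1:**
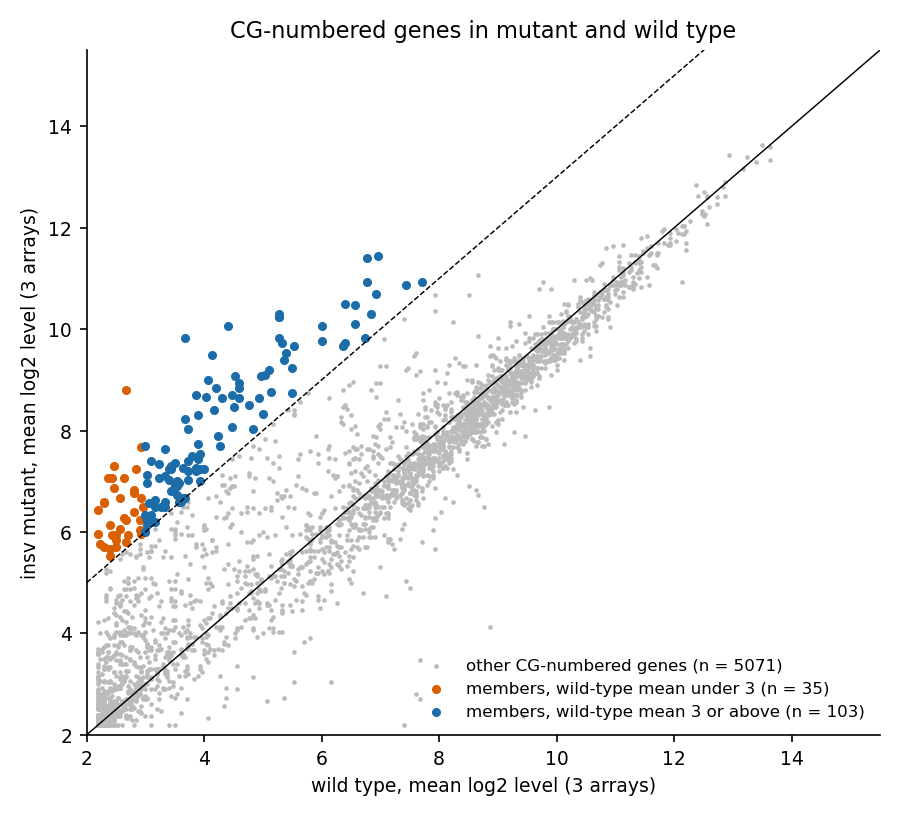
Mean log2 level of each CG-numbered gene in wild type (horizontal) and in the insv mutant (vertical), over 3 arrays each; the solid line marks equal levels and the dashed line a difference of 3. The 35 chosen genes with a wild-type mean under 3 and the 103 at 3 or above lie on or above the dashed line, with mutant means from 5.53 to 11.43.

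The gap between the genotypes follows largely from the choice of genes and is given as a description. The distance from the highest wild-type to the lowest mutant value had a median of 3.4 and reached 6.0 in CG18754, and it was at least 3 in 117 genes. It was smallest, at 2.1, in CG16743, which read 6.3, 6.1 and 6.2 on the mutant arrays and 4.0, 2.8 and 2.7 on the wild-type arrays. Here the first wild-type array stood above the other two, and the genotypes still did not overlap. The median SD over 3 arrays was 0.10 in the mutant and 0.15 in wild type. In 3 genes the wild-type arrays spanned 1 unit or more, CG16743, CG12116 (2.7, 3.8 and 2.2) and CG12934 (6.0, 5.2 and 4.6), and no gene had such a span among the mutant arrays.

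The largest differences of the class with a wild-type mean of 3 or above were in genes with mutant means near 10. CG33272 read 10, 9.7 and 9.8 in the mutant and 3.6, 4.1 and 3.3 in wild type, a difference of 6.17 (71.8-fold). All mutant arrays stood more than 5 units above all wild-type arrays. Its probe set name ends in x, Affymetrix's mark for probes that may also match other transcripts, so its signal need not come from this gene alone. CG34267 read 10.1, 10 and 10.1 in the mutant and 4.2, 4.2 and 4.8 in wild type, a difference of 5.67. The third wild-type array was the highest of its group there. CG5023, a member of the calponin family of actin-binding proteins, read 9.5 on each mutant array and 4.2, 4.3 and 3.9 in wild type, a difference of 5.37. Its mutant arrays were indistinguishable at the 1 decimal of the deposited values.

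A further gene pair of this class had equal differences. CG10598 read 10.2, 10.2 and 10.3 in the mutant and 5.3, 5.1 and 5.4 in wild type, and CG14453 read 10.3, 10.2 and 10.2 against 5.5, 5.5 and 4.8. Both differed by 4.97, and in CG14453 the third wild-type array was the lowest. CG12934 differed by 5.03 with mutant values of 10.4, 10.2 and 10.3, although its wild-type arrays were the most scattered of the 10 genes (SD 0.70, n = 3). CG13043 read 8.8, 9.1 and 9.1 against 4.1, 3.9 and 4.2 in wild type, a difference of 4.93. The remaining members of this group of 10 were CG7017, which encodes a chitin-binding protein (4.83), CG17738 (4.70) and CG18649 (4.63). CG15515 and CG8630 had the same difference as CG18649, which was taken for its higher mutant mean. CG17738 had wild-type values of 3.1, 3.0 and 2.9 and so lay on the border between the classes.

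In the class with a wild-type mean under 3, the wild-type means had a median of 2.57, and 2 of the 35 genes lay at the floor of 2.2 on all wild-type arrays. CG18754, the gene of a serine protease listed as SP61 in the annotation, stood apart with 8.8, 8.9 and 8.7 in the mutant and 2.6, 2.7 and 2.7 in wild type, a difference of 6.13 (70.2-fold). The next in size was CG31445, an aminopeptidase gene, with 7.3, 7.2 and 7.4 against 2.2, 2.7 and 2.5, a difference of 4.83. CG13285 read 7.6, 7.7 and 7.7 in the mutant and 3.0, 2.9 and 2.9 in wild type (4.73). CG13075 and CG3868 followed with differences of 4.70 and 4.63. Their mutant values lay between 7.0 and 7.2 and their wild-type values between 2.2 and 2.6. CG31446 differed by 4.43, CG9269 by 4.40, CG15369 by 4.40, CG33978 by 4.30 and CG11893 by 4.27. CG33978 and CG11893 read 2.3 on every wild-type array. In CG18231 and CG15128 all wild-type arrays lay at the floor of 2.2, with mutant values of 6.4, 6.5 and 6.4 and of 6.0, 6.1 and 5.8.

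**Figure D2:**
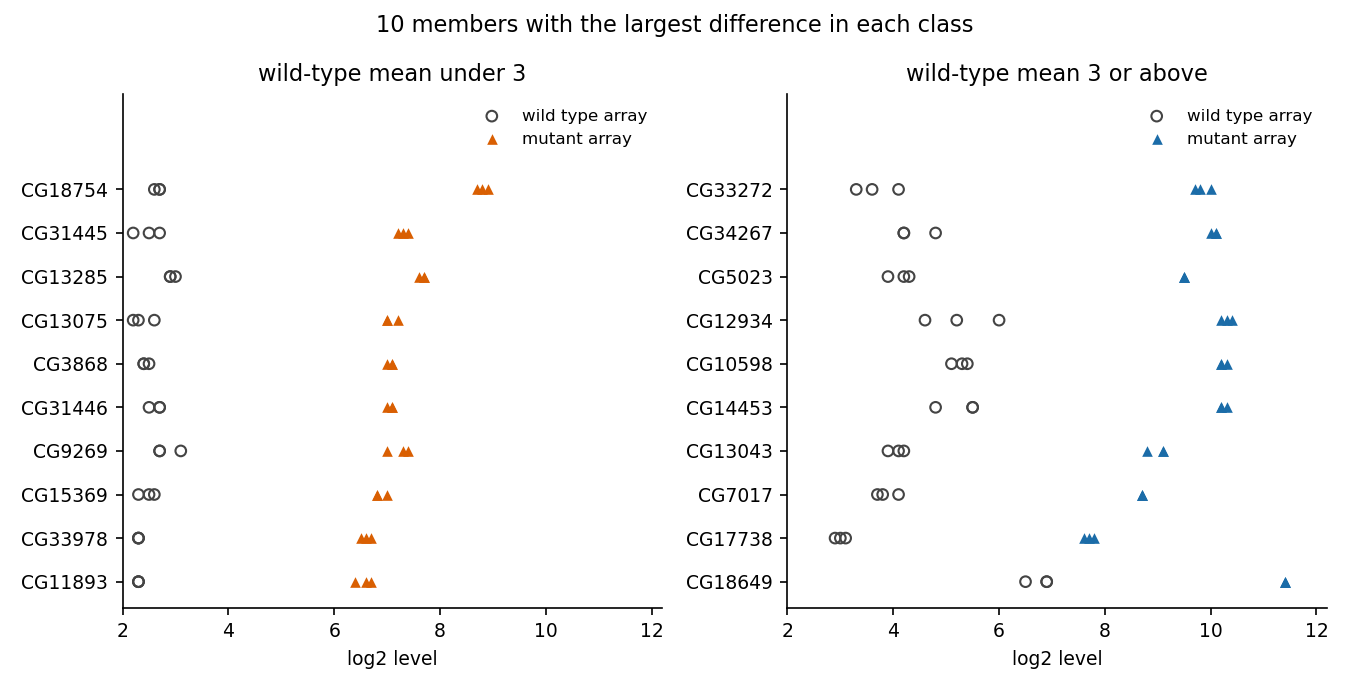
Log2 level on each array (circles wild type, triangles mutant, 3 arrays each) of the 10 chosen genes with the largest difference in each class of wild-type mean. In every gene shown the mutant arrays lie to the right of the wild-type arrays, with CG18754 (8.7 to 8.9 against 2.6 to 2.7) farthest apart on the left and CG33272 (9.7 to 10 against 3.3 to 4.1) on the right.

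The protein families grouped below took in 32 of the 138 genes. Families were assigned from annotation synonyms or textbook knowledge after the values had been seen, so the counts describe which genes are in the set and are no test of a family. The other 106 genes, placed in none of these groups, had a median difference of 3.67. For some of them, such as CG5023 and CG6426, a family or role is named in the text.

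Enzymes that cut proteins formed the largest assigned group. Aminopeptidases of the M1 family, zinc enzymes that remove residues from the amino end of peptides, had 5 genes with a median difference of 4.23. CG31233 read 9.2, 9.0 and 9.0 in the mutant and 4.1, 4.7 and 4.8 in wild type (4.53), and CG31198 read 8.4 on each mutant array and 4.3, 4.3 and 3.9 in wild type (4.23). The mutant values of CG31198 were equal to the decimal given, while those of wild type were not. CG8774 and CG8773 had smaller differences of 3.73 and 3.20, with wild-type means of 2.4 and 2.5 near the floor.

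The serine proteases and their homologues numbered 4, CG18754 among them. CG9673, a homologue listed as SPH81, read 8.6, 8.5 and 8.4 in the mutant and 4.8, 4.8 and 4.7 in wild type (3.73). CG18180 read 7.4, 7.5 and 7.4 against 3.9 on each wild-type array (3.53). Both showed little spread within a genotype. CG30289 had the smallest difference of these genes, 3.5, with 6.2, 5.7 and 5.9 against 2.5, 2.4 and 2.4.

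Zinc carboxypeptidases, which remove residues from the carboxyl end, had 3 genes, CG18585 (3.87), CG17633 (3.60) and CG8560 (3.10). CG18585 read 7.5, 7.0 and 7.4 in the mutant, with the second array lowest, and 3.5, 3.4 and 3.4 in wild type. Both inhibitor genes had wild-type means under 3. CG15369, of the cystatin type that blocks cysteine proteases, read 7.0, 6.8 and 6.8 against 2.5, 2.6 and 2.3 (4.40). CG16713, of the Kunitz type that blocks serine proteases, read 5.9, 5.7 and 5.0 against 2.5, 2.4 and 2.3 (3.13). It had the lowest mutant mean, 5.53, and the largest mutant SD, 0.47 (n = 3), of all 138 genes, because the third mutant array stood lower than the others. Single genes of other degrading enzymes were CG6426, a lysozyme-type gene (4.10), CG3734, a serine carboxypeptidase (4.03), and CG6337, a papain-like protease (3.37).

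The 5 genes of peritrophin-type chitin-binding proteins, which occur in the lining of the gut and in cuticle, all had wild-type means above 3 and a median difference of 4.17. CG6933 read 10.9, 11.0 and 10.9 in the mutant and 7.0, 6.5 and 6.8 in wild type (4.17). CG7298 read 10.8, 10.7 and 10.6 against 7.0, 6.9 and 6.9 (3.77). CG6933 and CG7298 were already well above the floor in wild type, unlike most of the chosen genes. CG7017 read 8.7 on each mutant array and 4.1, 3.8 and 3.7 in wild type, and CG43896 read 8.2, 7.9 and 8.0 against 3.8, 3.3 and 4.1 (4.30). CG7290 had the smallest difference of the family, 3.37.

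Enzymes of fatty acid and wax metabolism numbered 5 with a median difference of 4.10. CG8630, an acyl-CoA desaturase gene, read 8.5, 8.7 and 8.8 in the mutant and 4.4, 3.9 and 3.8 in wild type (4.63). The fatty acid elongase genes CG5326 and CG33110 differed by 4.23 and 4.10. CG5326 was tight, with 8.8, 8.9 and 8.8 against 4.5, 4.8 and 4.5, while CG33110 had wild-type values of 3.4, 3.5 and 2.8. The fatty acyl-CoA reductase genes CG1441 and CG8303, whose products make fatty alcohols, differed less, by 3.47 and 3.23. CG8888, a short-chain dehydrogenase gene, differed by 3.30.

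Of the 4 ecdysteroid kinase-like genes, a family named after a silkworm enzyme that phosphorylates moulting hormone, 3 lay in the class with a wild-type mean under 3. CG11893 read 6.6, 6.4 and 6.7 in the mutant (4.27), CG16898 read 6.7, 6.8 and 6.8 against 2.8 on each wild-type array (3.97), and CG10562 read 5.8 on each mutant array against 2.6, 2.7 and 2.7 (3.13). The fourth, CG9498, read 7.3, 7.3 and 7.1 against 3.1, 3.9 and 3.2 (3.83), with the second wild-type array above the other two. None of the 4 had a wild-type mean above 3.4.

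The 4 transporter genes had wild-type means above 3. CG4928, an UNC93-like membrane protein gene, read 9.3, 9.5 and 9.4 in the mutant and 5.3, 5.3 and 5.5 in wild type (4.03). The others had smaller differences, CG15096 of the major facilitator superfamily 3.33, and the amino acid transporter-like genes CG16700 and CG8785 3.33 and 3.07. Among genes with roles outside these families, CG10859, a dynein intermediate chain gene, read 5.8, 6.3 and 6.1 against 3.0, 2.4 and 2.3 (3.5). The Ly6-type surface protein genes CG9338 and CG7781 differed by 3.33 and 3.20.

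**Figure D3:**
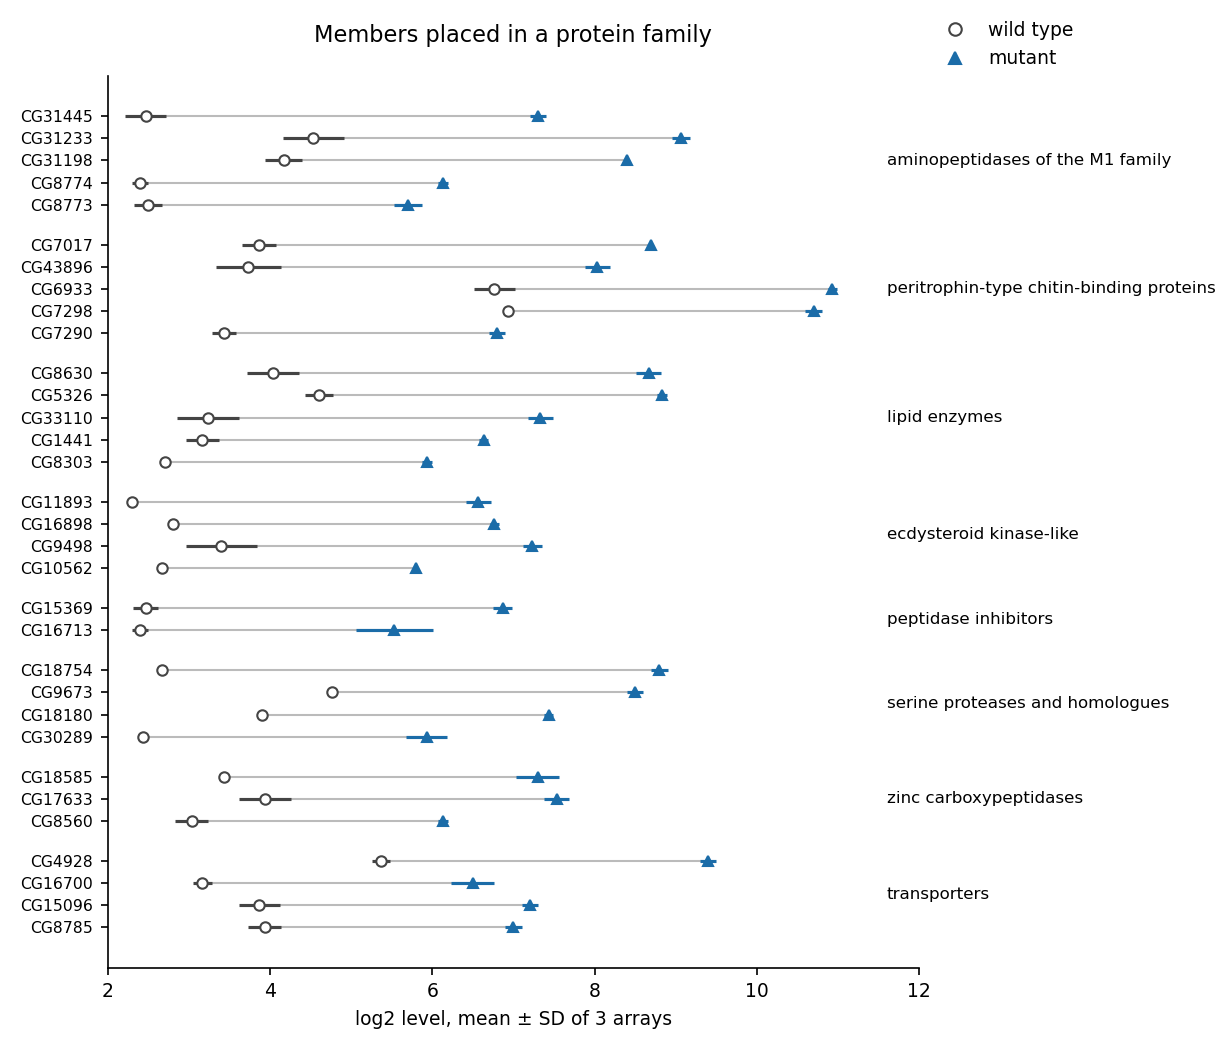
Log2 level in wild type (circles) and mutant (triangles) of the 32 chosen genes placed in the grouped protein families, as the mean of 3 arrays with bars for the SD. Peritrophin-type CG6933 and CG7298 start near 7 in wild type, whereas 3 of the 5 aminopeptidase genes and 3 of the 4 ecdysteroid kinase-like genes start below 3; the widest distance is that of CG18754.

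The threshold of 3 cut through a continuous range. Just inside, CG15043 read 6.7, 6.5 and 6.6 against 3.5, 3.6 and 3.7, CG30269 read 6.0 on each mutant array against 2.9, 3.1 and 3.0, and CG7567 read 6.6, 6.7 and 6.7 against 3.7, 3.9 and 3.4, each with a difference of 3.00. Just outside lay genes such as CG13321, CG10650, CG2269, CG31626 and CG10725, each with a difference of 2.97, and their genotypes did not overlap either. CG13321 read 8.6, 8.3 and 8.3 against 5.6, 5.4 and 5.3. Another view of the same border is that 56 CG genes had a difference from 2.5 to under 3 without overlap, and that 0 CG genes with a difference of 3 or more were lost to overlap.

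The array measured most of the chosen genes once. For 129 of the 138 a single uniquely named probe set existed, and for 9 the brightest of 2 or 3 was used. In CG10953 and CG15213 the second probe set gave much the same picture: CG10953 read 10.9, 11.1 and 11.1 against 6.8, 6.9 and 7.2 on it, a difference of 4.07 beside 3.43 on the brightest, and CG15213 differed by 3.90 beside 3.67. In the other 7 genes the other probe sets differed by at most 1.37. CG33978 had a difference of 0.97 on its second probe set (3.9, 3.8 and 3.2 against 2.6, 2.7 and 2.7) beside 4.30 on the first. CG43078 had 1.37 and 0.00 beside 3.57, and CG5326 had 0.87 and 0.00 beside 4.23. The other probe sets of CG13679, CG42540, CG43896 and CG43897 read 2.2 on every array. Whether these probe sets match other transcripts of the gene was not tested. Of the 138 probe sets used, 8 carried Affymetrix's s mark and 3 its x mark, both for probes that can match more than one gene, among them those of CG33272, CG13731, CG13679, CG43897, CG4928 and CG1441.

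The arrays of a genotype contributed unequally to these genes. The third wild-type array was the lowest of its group in 52 genes (37.7%) and the first the highest in 47 (34.1%), with ties counted for neither. Over all genes tested the third was lowest in 33.2% and the first highest in 18.0%. Among the genes with other symbols that met the rule these shares were 33.6% and 40.8%, so the pattern was not particular to the CG genes. Each mutant array was lowest in 19.6% to 23.2% of the chosen genes, and the first was highest in 29.7%, beside 26.2% of all genes tested. The mean deviation from the group mean was 0.06 for the first wild-type array and -0.06 for the third, against a smallest difference of 3.00.

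All 138 genes were protein coding in the RefSeq annotation. Their annotated span had a median of 1511.5 bases, against 1718 for all CG genes and 2134 for the genes with other symbols that met the same rule. The classes lay on either side of all CG genes, with a median of 2006 bases for a wild-type mean under 3 and 1233 for 3 or above. The span ran from 267 bases to 72592 in CG32206. Chromosome arm 3L held 46 of the 138 (33.3%), where it held 20.2% of all CG genes and 21.2% of the genes with other symbols that met the rule. Arm 3R held 30, 2R 23, X 20, 2L 17 and the fourth chromosome 2. These shares are given without a test.

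About as large a share of the chosen genes lay in runs along the chromosome as of the genes with other symbols that met the rule. With at most 2 annotated genes between them, 34 of the 138 (24.6%) formed 15 runs, and of the genes with other symbols it was 34 of 151 with a place in the annotation (22.5%), also in 15 runs. The longest run held 4 of the chitin-binding protein genes on 3L, CG7298, CG7290, CG7017 and CG6933, with differences of 3.77, 3.37, 4.83 and 4.17. Between CG7290 and CG7017 lay CG6996, which read 2.40 in both genotypes on average, so the run was not unbroken. On 3R, CG7714, CG7715 and CG14302 were direct neighbours with differences of 3.73, 3.5 and 3.3. On X, CG12480, CG1368 and CG11584 alternated with betaNACtes1 and CG11581, both of which read 2.2 in both genotypes.

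Runs of 2 included gene pairs of a shared family. The aminopeptidase genes CG31233 and CG31198 were neighbours on 3R, and so were CG8773 and CG8774 elsewhere on that arm. CG9757 and CG9269 on 3R had similar differences of 4.30 and 4.40, with mutant values of 7.3, 7.4 and 7.5 and of 7.0, 7.3 and 7.4. CG31997 and CG33978, the only chosen genes of the fourth chromosome, were neighbours too, although one had a wild-type mean of 4.47 and the other 2.30. The remaining pairs were CG9568 with CG13102 on 2L, CG7567 with CG11470 on 3R, and on 3L CG15021 with CG12607, CG32237 with CG13705, CG15212 with CG15213, CG13043 with CG13063, CG14569 with CG14568, and CG14572 with CG14565. CG13705 had the highest mutant mean of all 138 genes, 11.43, from values of 11.4, 11.5 and 11.4 against 6.9, 7.0 and 7.0 in wild type. Its partner CG32237 read 6.3, 6.1 and 6.4 against 2.7, 2.6 and 2.6.

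A stretch of small genes on 3L from CG13067 to CG13059, picked out after its values were seen, held 6 of the chosen genes among 27 annotated ones, 21 of them measured. CG13067 read 10.5 on each mutant array and 6.4 on each wild-type array (4.10), and CG13059 read 10, 10.2 and 10.1 against 6.7, 6.4 and 6.6 (3.53). Between these ends lay CG4962 (3.47), CG13043 (4.93), CG13063 (3.33) and CG13041 (3.70). Of the 15 measured genes of the stretch that were not chosen, 4 differed by at least 1: CG13060 by 2.93, CG13066 by 2.5, CG13044 by 2.37 and CG13049 by 1.80. The other 11 lay between -0.17 and 0.47, and several, such as CG13065, CG13050 and Nplp3, read 2.2 on every array. Genes far higher in the mutant and genes at the floor in both genotypes thus alternated within the stretch.

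**Figure D4:**
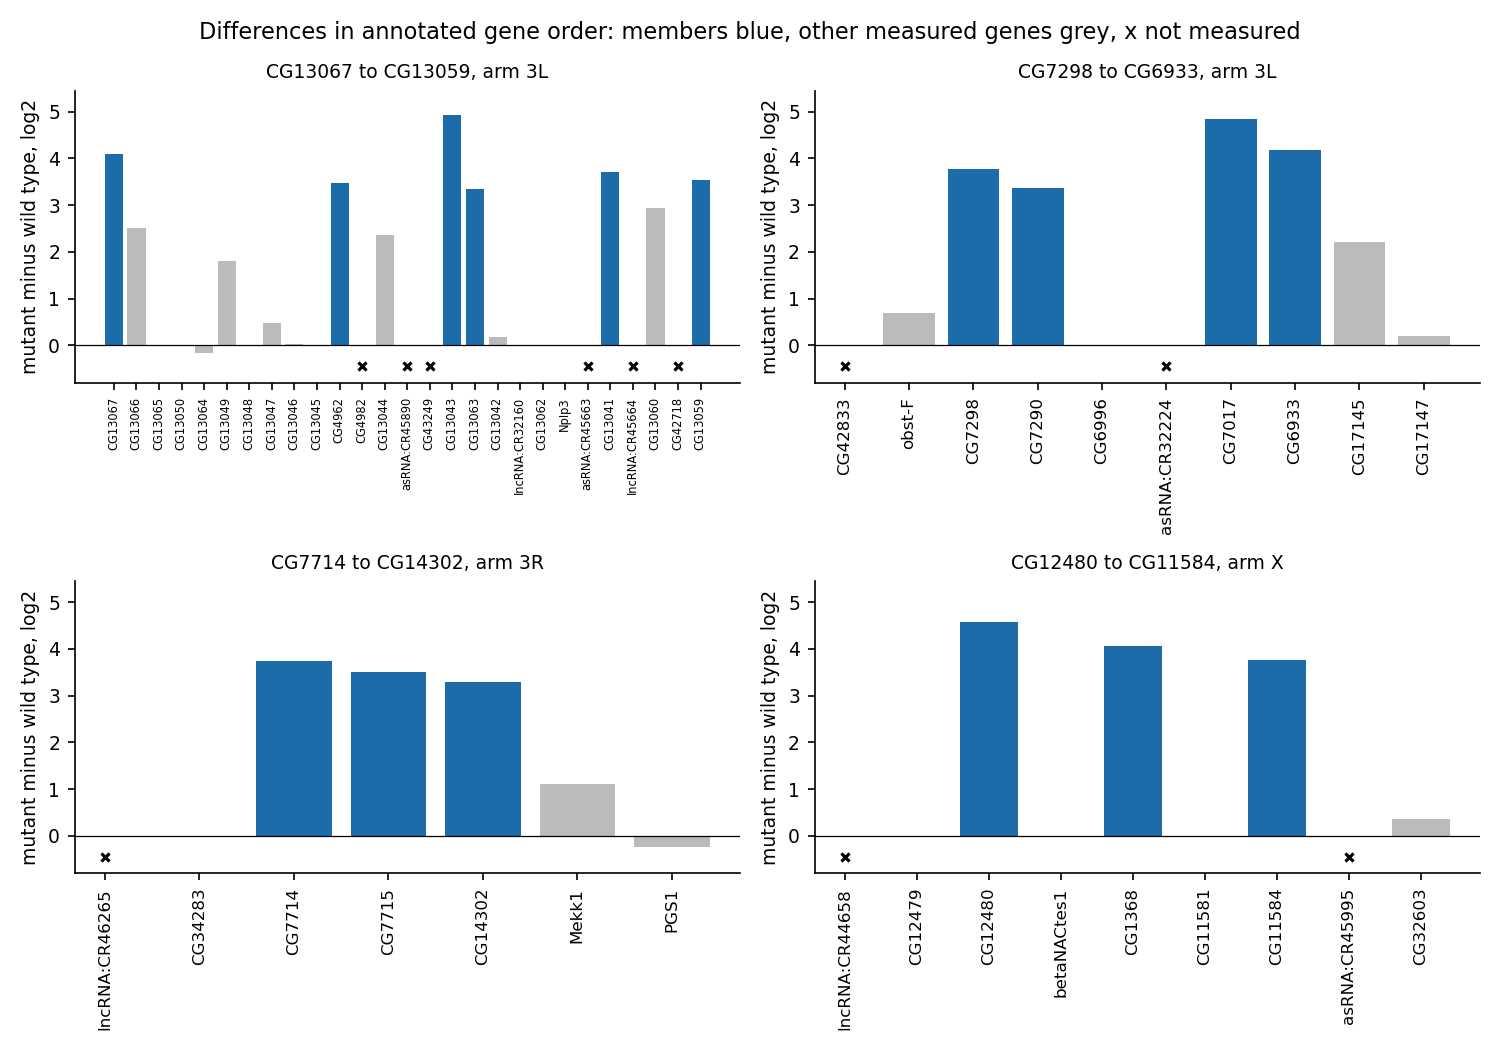
Difference in log2 level between mutant and wild type (bars) for genes in annotated order in 4 places: the 3L stretch from CG13067 to CG13059, and the runs of chitin-binding protein genes on 3L, of 3 genes on 3R and of 3 genes on X with the annotated genes on either side. Chosen genes (blue) have bars of 3.30 to 4.93 and stand beside genes with no difference, such as CG6996 and CG11581; crosses mark genes without a uniquely named probe set here.

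Neighbouring genes were taken whatever their symbol, except that CG-numbered ones could not meet the rule, and their calls come from the limma test over all probe sets. The nearest measured gene on each side gave 239 genes, of which 103 passed the filter on low values. Of these 103, 48 (46.6%) were called higher and 31 (30.1%) lower, beside the 24.9% and 41.7% of all genes tested, and their median log2 fold change was 0.10 beside -0.13. A log2 fold change of at least 1 with a call was seen in 32 (31.1%), beside 13.3% of all genes tested. A gene low in wild type passes the filter only when the mutant is high, so the share was also taken over measured genes without a filter. At least 1 higher in the mutant were 39 of 239 (16.3%), beside 8.66% of all genes measured. Decreases are not part of this share. The largest changes of any neighbour were decreases, those of CG32201 (-4.80) and Lkr (-4.37). The median difference over measured genes was 0.00 in both sets. Neighbouring genes of one family can share sequence, and the part of probes that match both was not tested.

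Of the 239 measured neighbours, 132 were CG-numbered and so could not meet the rule. Among the rest, 6 genes with other symbols met the rule of 3 units themselves. Over all 6773 genes with other symbols the share was 2.24%. Muc55B, a mucin-type gene beside CG10911, read 9.2, 9.0 and 9.1 in the mutant and 5.4, 4.9 and 5.2 in wild type (3.93). EAChm, beside CG18649, read 10.2 on each mutant array and 6.5, 6.3 and 6.4 in wild type (3.80). The others were IM33 beside CG16713 (3.77), Try29F, a trypsin-type protease gene beside CG9568 (3.53), frm beside CG13285 (3.23) and hoka beside CG13705 (3.07). In all 6 the genotypes did not overlap, as the rule asks.

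**Figure D5:**
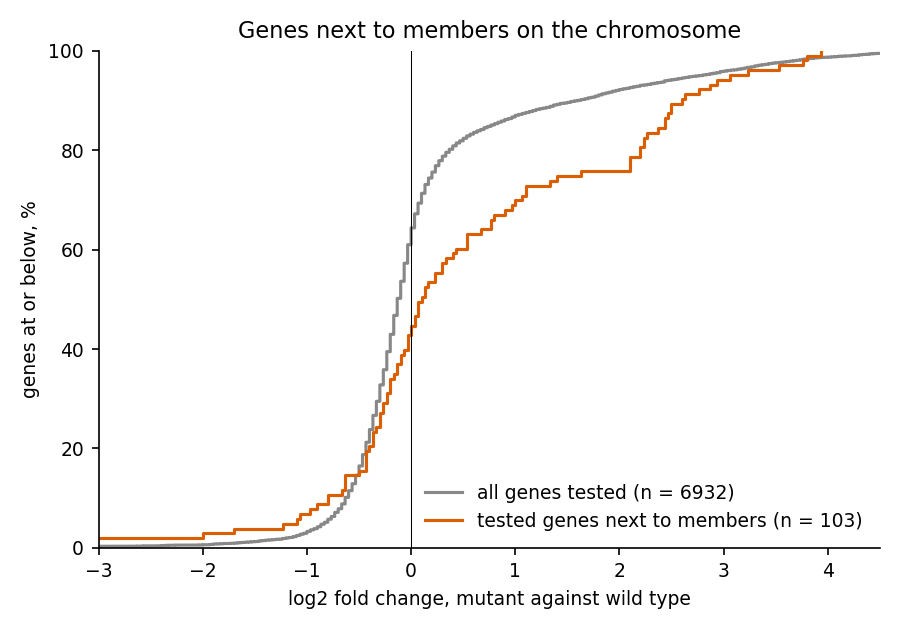
Cumulative share of genes (vertical, %) at or below a log2 fold change, mutant against wild type (horizontal), for the 103 tested genes next to chosen genes and for all 6932 genes tested. The curve of the neighbours lies to the right over most of the range, with medians of 0.10 and -0.13.

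Genes with other symbols met the same rule about as often, 152 of 6773 or 2.24%, beside 2.65% of CG genes. Their median difference was 3.60 and their largest 5.4, beside 3.72 and 6.17 for the CG genes. Their wild-type means had a median of 4.08 beside 3.62. In the opposite direction 7 CG genes read at least 3 lower in the mutant without overlap, against the 138 higher. CG13689 read 2.3, 2.3 and 2.5 in the mutant and 9.5, 9.5 and 9.3 in wild type, a difference of -7.07 that exceeds in size every increase of the 138. CG43090 read 2.2 on each mutant array and 7.4, 7.5 and 7.3 in wild type (-5.20). The other 5 were CG14111 (-4.97), CG32201 (-4.80), CG12885 (-4.73), CG31251 (-4.20) and CG31517 (-3.13).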

How the data were processed

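The deposited values are log2 expression levels that the authors computed with GCRMA, per the submitters' processing notes, which name neither version nor options. This method estimates background from the base composition of the probes, normalizes across arrays and combines the probes of a set; the values have a floor of 2.2 and 1 decimal. Columns that belong to no labelled sample numbered 0.

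The 6 arrays were used as deposited, and their number limits the precision. Of 18952 probe sets 183 were controls, and 13647 others had 1 gene symbol. Where a gene had several probe sets, the one of highest mean level was used. Symbols and gene order came from RefSeq (assembly Release 6 plus ISO1 MT), matched by gene identifier for 13544 probe sets and all 138 members; no coordinates are given, since no source used here names the build of the array annotation.

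The genotypes were contrasted by limma 3.58.1 under R 4.3.3 (lmFit, then eBayes with its default prior and no block) over the 8334 probe sets that reached a level of 4 on 3 or more of the 6 arrays, at a Benjamini-Hochberg adjusted p under 0.05. The prior had 1.18 degrees of freedom. The fit was tested on simulated data. All 138 members passed the filter, so they were part of the fit and of the shares over all genes tested, but their own results are not given. Each p-value sets a difference between genotypes against the spread between arrays of a genotype, which may be technical.

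The members, the 10 marker lists and the rule for named genes were chosen with earlier results of these data known. The rule took insv, the 10 largest differences of each class, the genes nearest the threshold, members in runs and the extremes of mutant level. It also took members with another probe set that differed by under 1. In all the rule named 59 members. Parts of it that need protein or promoter sequences were not run. Members given a family or a role, and those quoted for a large spread or a wild-type level at the floor, were added after their values were seen. So was CG10953, quoted for its second probe set. Other settings tried were quantile normalization, median centring, no filter, a filter at 6, the replicate number as a block, a trended prior, each array left out, averaging the probe sets of a gene, and a difference of 2 or 4. A scale set by the spike-in controls and the use of plain probe sets were added after seeing the data.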

Additional observations from a re-analysis of the deposited data

Results flagged for a closer look

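Probe sets without a unique gene symbol were outside the comparisons above, and some met the same rule. Of 4720 probe sets with no symbol in the annotation used, 15 (0.318%) read at least 3 higher in the mutant without overlap, and of 402 with several symbols 12 (2.99%) did. Probe sets with 1 symbol met the rule in 300 of 13647 cases (2.2%). At least 3 lower without overlap were 2 of those with no symbol and 1 of those with several. These probe sets are not named here, and whether they belong to further CG genes was not tested.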

How the results depend on the processing

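The number of CG genes meeting the rule was 138 and depended mainly on the size of difference asked for and on the scale. It was 265 at a difference of at least 2, 51 at 4, and 368 on the scale set by the spike-in controls, which shifted all differences by 1.57. Quantile normalization left 103 and added 0, centring arrays on their median over all non-control probe sets left 128 (it lowers each difference by 0.13), averaging a gene's probe sets left 131 and keeping only plain probe sets left 119. With each array left out in turn it was 134 to 140, with at least 133 of the 138 shared. The limma calls, 5459, were 4710 to 5713 with an array left out, those among neighbours, 79, were 72 to 79, and those among markers, 76, were 70 to 76. With the replicate number as a block they were 5234, 78 and 73. Deviations of same-numbered arrays correlated at 0.166, -0.0145 and 0.271, so the numbers were not taken to pair the samples; not every array correlated best with its own number (0.197 for mutant 1 with wild type 2). Centring on the median over the probe sets tested, the form used for the limma calls, turned the balance and made 51.5% of all calls higher against 37.6%, and 70.7% of those among neighbours against 60.8%. The 59 members named by the rule kept a positive difference under the settings run for them, with the lowest, 1.13, in CG13679 when its probe sets were averaged. The spike-in scale was not run for the limma calls. The floor of 2.2 limits differences of genes with low wild-type values.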
